A study of Drosophila melanogaster with 3 samples.

Results

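The cells described here are 1494 germ cells of Drosophila melanogaster that held germline transcripts but almost none of pgc, the maternal RNA whose small protein keeps newly formed pole cells transcriptionally silent. They came from the unsexed library of a study with 3 single-cell libraries, which covered embryos of 0 to 8 h and carried the vas-GFP reporter. A cell entered when it had at least 1000 UMIs (unique molecular identifiers, each counting 1 captured RNA molecule) and 500 genes. It also needed UMIs for at least 3 of the 7 germ genes vas, nos, pgc, zpg, aub, CG17650 and CG14545, under 1 pgc UMI per 10000 UMIs, and fewer than 3 UMIs of sisA, an early zygotic X-linked gene. The rule took 1494 of the 3810 cells of that library (39.2%), out of 20952 cells in the 3 libraries. The members were thus chosen on measured values of 8 genes, and those 8 genes are given as description and left out of the counts of genes past a fold limit between classes.

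The other groups used were a female and a male library of 5 to 8 h embryos of genotype Sxl-GFP, vas-GFP, so all 3 groups carried vas-GFP and only the sexed ones also Sxl-GFP. In all 3 groups cells were sorted on GFP and polyadenylated RNA was measured. Embryos were raised at 1 of a pair of temperatures with the time adjusted, so the hours are nominal. The unsexed library was made with version 2 of the 10x 3′ kit and the sexed libraries with version 3, so kit, hours and genotype cannot be told apart between them. There was 1 library per group, no replicate and no test, and all intervals are 95% intervals that cover counting error only. No feature for GFP was among the genes counted, so the sorted reporter could not be read in the counts. Of the cell barcodes, 1 was shared by the unsexed and female libraries, 0 by the unsexed and male libraries and 17 by the female and male libraries.

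As background, fly germ cells form at the posterior pole around maternal germ plasm, are held silent by pgc and other factors while the soma activates its genome, and begin their own transcription as pgc RNA disappears and they migrate through the midgut towards the gonad. Many maternal RNAs are degraded over the same period. The cells without pgc are therefore compared with their nearest neighbours in the same library: 777 germ cells with 1 to under 10 pgc UMIs per 10000 (pgc-losing), 568 with 10 or more (pgc-rich), and 462 cells with UMIs for fewer than 3 germ genes (other cells). A further 470 cells had at least 3 germ genes and at least 3 sisA UMIs, and 39 cells missed the limits on UMIs or genes. Late germ cells had a median of 17885.5 UMIs (1529 to 44840) and 3405.5 genes, close to the 16139 and 15765 UMIs of pgc-losing and pgc-rich cells, whereas other cells had 3773.5.

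The margins of the rule were as follows. No pgc UMI was found in 1067 of the 1494 late cells, and 320 had 0.5 to under 1 per 10000, next to 161 cells just outside with 1 to under 1.5. Only 36 late cells showed the minimum of 3 germ genes, 612 showed 5, 466 showed 6 and 113 all 7, and 45 cells just outside showed 2. No sisA UMI was found in 1457 late cells, and 6 cells just outside had 3.

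The label was checked against its markers. The innexin zpg, the germline gap-junction protein, stood at 516 CPM (UMIs summed over the cells of a class and scaled to its total without mitochondrial genes) in late cells, 502 in pgc-losing, 516 in pgc-rich and 35.3 in other cells. The stathmin gene stai, which encodes a microtubule regulator, stood at 758, 715, 706 and 74.7 CPM in the same order. Both were therefore level across germ cells and did not mark late against early ones. Both stood lower in other cells, but zpg belongs to the rule, so its gap to other cells is in part set by the selection. The gene stai is not in the rule. The uncharacterised genes CG17650 and CG14545, at 321 and 487 CPM in late cells against 25.6 and 267 CPM in pgc-rich and 9.95 and 19.5 CPM in other cells, were higher in late cells, but both belong to the rule. The marker gnu, which encodes the activating subunit of the PNG kinase of egg activation, was not in the rule. It stood at 337 CPM (330 to 344) in late cells, 150 in pgc-losing, 171 in pgc-rich and 27.1 in other cells.

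Under the same rule, 852 female and 2949 male cells were late, and gnu stood at 168 CPM in female late cells against 192 in female pgc-losing cells, and at 232 against 233 CPM in the male library. The late to pgc-losing ratio of gnu was 2.25 (2.14 to 2.36) for the unsexed cells, 0.876 (0.814 to 0.945) for female cells and 0.995 (0.948 to 1.05) for male cells. The kinase's other subunit genes did not go with gnu in the unsexed library, where plu was at 50.2 CPM late and 101 CPM pgc-losing and png at 61.2 and 72.1.

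Markers of 12 other embryonic cell types, 57 genes in all, summed to 600 CPM in late cells, 708 in pgc-losing, 775 in pgc-rich and 3099 in other cells. The highest of them in late cells were how at 189 CPM, Nrt at 99.9, peb at 69.4 and elav at 37.2 CPM. Not all lists went with the sum. Neural markers stood at 17.2 CPM in pgc-rich, 34.5 in pgc-losing and 44.6 in late cells, with elav at 8.08, 23.5 and 37.2. In the same order mesoderm and muscle markers rose (157, 165 and 210 CPM), with how at 85.3, 132 and 189. Hindgut markers fell (74.7, 39.1 and 23.7 CPM), and amnioserosa markers were highest in pgc-losing cells (156, 205 and 104 CPM). Other cells held 181 CPM of how, 13.1 of cad, 13.1 of fog and 7.69 of zen, and late cells held 12.6 of zen. These genes were thus not lower in late cells and do not mark other cells here, though they count in the sum. Under 1 CPM in late cells were all 3 markers of glia, all 4 of yolk and fat body, and 5 of 6 of haemocytes, with Hml at 0.0772, NimC1 and eater at 0 and Pxn at 1.16 CPM. In the other lists part of the markers were above 1 CPM. For trachea 2 of 3 were under it, with vvl at 7.56, and for neural cells 4 of 7, with elav, dpn (3.90) and scrt (1.54) above it. For midgut endoderm 1 of 4 was under it (GATAe), with fog at 13.7, srp at 2.62 and hkb at 1.39 CPM, and for hindgut 1 of 3 (byn), with cad at 19.8 and bowl at 3.40 CPM. The count was 2 of 8 for mesoderm and muscle, 2 of 6 for epidermis, 2 of 4 for somatic gonad, 1 of 4 for salivary gland and 1 of 5 for amnioserosa. In late cells of the sexed libraries the same 57 markers summed to 1593 CPM in the female and 867 CPM in the male library. The part of free RNA in these sums was not tested.

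The comparison with pgc-losing cells asks what changes as the last pgc disappears. The genes with the highest ratios included the meiotic gene cona and second copies of ribosomal protein genes, and those with the lowest included the patterning genes sog, tll and zen. Of 4674 genes past the size filter (at least 20 CPM in 1 class and 50 UMIs over both), 113 (2.42%) were at least 2-fold higher and 120 (2.57%) at least 2-fold lower in late cells. With TMM scaling in place of totals, which moves all late to pgc-losing values by 0.11 on the log2 scale, the counts were 91 and 155. The median log2 ratio over all tested genes was 0.074.

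The highest ratio was that of cona, which encodes a central-region protein of the synaptonemal complex, the scaffold that joins homologous chromosomes in meiosis. It stood at 0.683 CPM in pgc-rich, 5.41 in pgc-losing and 31.0 (28.9 to 33.2) in late cells, 5.74-fold (4.47 to 7.48) above pgc-losing cells, and at 1.36 CPM in other cells. In late cells of the female and male libraries cona stood at 22.5 and 42.2 CPM, against 9.65 and 17.0 CPM in pgc-losing cells there. It lies on chromosome 3R, positions 18385828 to 18386887 of the plus strand in the BDGP6 reference annotation, and overlaps Vha100-4 on the opposite strand. The labels do not say whether counting used the strand. Next was TfIIA-S-2, a second gene for the small subunit of the basal transcription factor TFIIA, at 0.910, 12.7 and 59.6 CPM from pgc-rich to late cells, a late to pgc-losing ratio of 4.70 (3.99 to 5.58). It lies on chromosome X, positions 1011101 to 1011643 of the minus strand. Late cells of the female and male libraries held 28.4 and 17.5 CPM of it, 2.88-fold and 2.68-fold above their pgc-losing cells. Both genes were thus higher in late cells of all 3 libraries, and the intervals of the ratios lay above 1.

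The other named genes with the highest ratios were RpL37b (4.6-fold), RpS19b (4.20), betaNACtes6 (4.08), CG15262 (4.01), ND-B8 (3.85), CG42854 (3.73), HP1Lcsd (3.54), lncRNA:CR44560 (3.48), CG32259 (3.46) and CG1894 (3.42). RpL37b and RpS19b are second copies of ribosomal protein genes, betaNACtes6 a relative of the beta subunit of the nascent polypeptide-associated complex, ND-B8 a complex I subunit gene, and HP1Lcsd a gene of the HP1 family. In the sexed libraries the ratios of these 10 genes lay between 0.926 and 1.85. ND-B8 (0.926 female, 1.03 male) and CG32259 (0.935 and 1.02) had intervals that span 1 in both sexed libraries, as did HP1Lcsd (1.11 in each), and ND-B8 and CG32259 overlap a gene on the opposite strand.

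**Figure D1:**
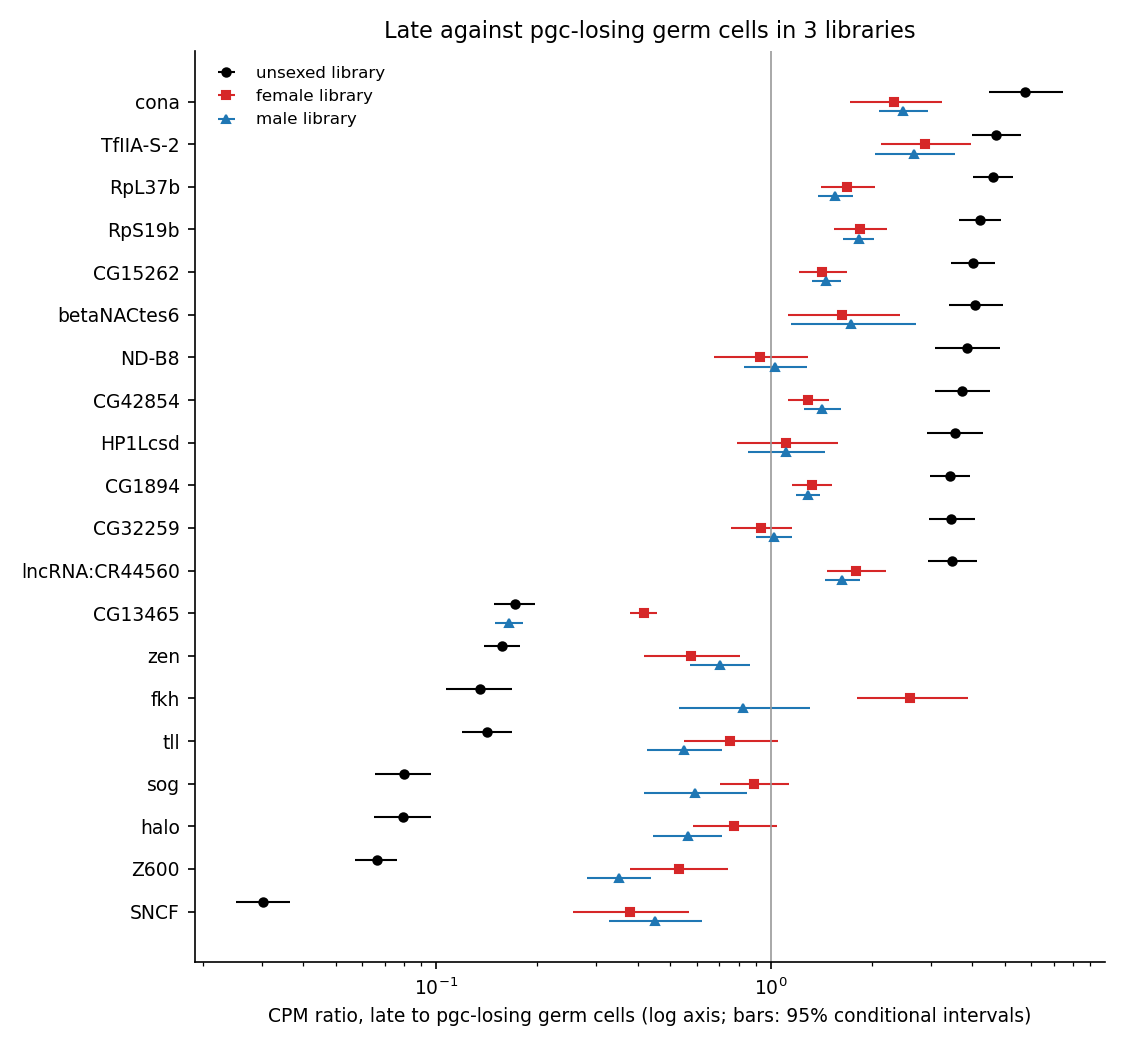
Ratio of CPM in late to pgc-losing germ cells (x axis, log scale) for the 12 highest and 8 lowest genes of the unsexed library (y axis), with circles for the unsexed, squares for the female and triangles for the male library and bars for 95% conditional intervals. The unsexed ratios of cona and SNCF, 5.74 and 0.0304, lie farther from 1 than the sexed ratios of the same genes, and fkh lies below 1 in the unsexed and above 1 in the female library.

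At the low end stood genes of early patterning and cell-cycle timing. SNCF, on chromosome 3L at positions 13378583 to 13379190, was 32.9-fold lower (27.5 to 39.7) in late than in pgc-losing cells, at 4.86 against 160 CPM, and had 499 CPM in pgc-rich cells. Z600, also called frühstart, which encodes an inhibitor of mitosis, was 15.1-fold lower (13.1 to 17.5). The kinesin regulator gene halo was 12.6-fold lower, the BMP antagonist gene sog 12.5-fold, the forkhead gene fkh 7.43-fold, the terminal patterning gene tll 7.04-fold, the homeobox gene zen 6.36-fold and CG13465 5.83-fold. SNCF shares a strand with CG14111 and Z600 with gdl, so their reads may be divided between neighbours. In the female library 7 of these 8 genes had ratios below 1, with fkh at 2.61 (1.81 to 3.88) and the intervals of halo, sog and tll spanning 1, and in the male library all 8 did, fkh with an interval that spans 1 (0.532 to 1.31).

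Fewer genes passed the fold limit in the sexed libraries. Of 5181 genes tested in the female library 25 (0.483%) were at least 2-fold higher and 36 (0.695%) lower in late cells, and of 5050 in the male library 2 (0.0396%) and 24 (0.475%). Of the 113 genes higher in unsexed late cells, 94 passed the size filter in the female library and 85 of them had a ratio above 1 there, where 41.0% of all tested genes did. In the male library 89 of 94 did, against 40.8% of all genes. Of the 120 lower genes 84 of 102 in the female and 82 of 86 in the male library lay below 1, against 59.0% and 59.2% of all genes.

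Against pgc-rich cells, the newly formed end of the axis, 132 of 4847 genes (2.72%) were at least 4-fold higher and 142 (2.93%) at least 4-fold lower in late cells, 5.65% in either direction. The highest were TfIIA-S-2 (65.5-fold), cona (45.5), CG15262 (31.6), CG6628 (31.3), Cyt-c1L (28.9), RpS19b (25.3), karr (22.4), RpS10a (21.6), RpL37b (21.3), CG43843 (17.7), CG14346 (16.5) and CG32971 (15.2). The counts behind the largest ratios were small in pgc-rich cells, with 8 UMIs of TfIIA-S-2 and 6 of cona, and the intervals were 33.1 to 152 and 20.8 to 124. More abundant were CG14346 at 235 CPM and CG32971 at 212 CPM in late cells, uncharacterised genes at 14.2 and 14 CPM in pgc-rich cells. CG32971 shares a strand with wb, CG6628 with dpr10 and CG43843 with CG32547. The lowest were CG15876 (173-fold lower), SNCF (103), amos (91.2), lncRNA:CR43887 (84.1), CG14427 (72.2), halo (45.4), Z600 (41.9) and sog (40.9). Past the same limit were 21 (0.396%) higher and 25 (0.471%) lower of 5303 genes in the female and 1 (0.0194%) higher and 30 (0.583%) lower of 5145 genes in the male library. In the sexed libraries 97 of 112 tested genes of the higher set in the female and 109 of 112 in the male library had a late to pgc-rich ratio above 1, against 47.0% and 50.8% of all genes.

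Against other cells of the same library, 374 of 5127 genes (7.29%) were at least 4-fold higher and 430 (8.39%) at least 4-fold lower in late cells, 15.7% in either direction. Higher were 595 of 5484 genes (10.8%) in the female and 53 of 5440 (0.974%) in the male library, and lower were 400 (7.29%) and 359 (6.6%). RpL22-like made up 10.1% of the UMIs of RpL22-like and RpL22 in male other cells and 0.232% in female ones. Rcd-1r made up 15.6% and 0.842% of its pair with Rcd-1. Other cells had a median of 3899 UMIs in the male and 7197 in the female library. The part of germ cells among male other cells was not tested. The lower male count is therefore not read as a smaller gap to somatic cells. With TMM scaling, a shift of 0.26, the counts of the unsexed library were 281 and 481. The leading genes were CG14810 (42.0-fold), CG15398 (39.9), RpL37b (39.7), CG1894 (37.8), Rcd-1r (31.3), CG15262 (28.6), CG42857 (25.6) and CG5194 (24.0). These 8 genes had 0.905 to 6.33 CPM in other cells, where pgc itself was at 95.9 CPM and zpg at 35.3. Counts of the 8 genes there were small, with 5 UMIs of RpL37b and 7 of Rcd-1r. By the log2 ratio of CPM plus 1, on which the 8 were chosen, RpL37b was highest at 4.80 and CG14810 stood at 4.35. With cells of at least 5000 UMIs only, the log2 ratio of CPM plus 1 against other cells went from 4.80 to 6.51 for RpL37b, from 4.47 to 5.94 for CG42857, from 4.55 to 5.78 for CG15398 and from 4.35 to 5.28 for CG14810, which placed CG42857 above CG15398. The part of free germline RNA in those levels was not tested. The most abundant transcript of late cells outside ribosomal protein genes was lncRNA:CR34335 at 14636 CPM, which was more abundant still in other cells at 33244 CPM and shares a strand with DIP-alpha. It was followed by eEF1alpha1, smt3, awd and Hsp26, the last a small heat shock gene, at 3835 CPM late and 6618 CPM in pgc-losing cells.

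Flies carry second copies of some ribosomal protein genes, several of which are used mainly in the germline. Of 14 copies, 10 passed the size filter. At least 2-fold higher in late than in pgc-losing cells were RpS10a (56.5 to 179 CPM), RpS19b (17.1 to 71.9), RpL22-like (30.6 to 87.4) and RpL37b (19.5 to 89.8). Of these, RpS19b and RpL37b were under 20 CPM in pgc-losing cells. They passed the filter through late cells, so no count is read. The median log2 ratio of the 10 was 0.41. The 78 genes of the main cytosolic ribosome had a median of 0.025 and none past the limit in either direction. RpS10a lies on chromosome 3R, positions 27652760 to 27653363 of the plus strand, and overlaps tau on the opposite strand.

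Copies can be read within their pair, which removes the scaling of the library. RpS10a made up 0.241% (0.189 to 0.303%) of the UMIs of RpS10a and RpS10b in pgc-rich cells, 1.62% in pgc-losing cells and 5.05% (4.91 to 5.19%) in late cells, and 0.206% in other cells. RpL22-like went from 0.983% to 4.27% and 11.4% of its pair with RpL22, RpS19b from 0.112% to 0.642% and 2.62%, and RpL37b from 0.0859% to 0.389% and 1.79%. The main copy kept most of the RNA in each of these pairs. The pattern was not limited to ribosomes: TfIIA-S-2 made up 0.485%, 3.89% and 10.3% of its pair with TfIIA-S. Cyt-c1L, a copy of the cytochrome c1 gene, made up 0.486%, 4.0% and 13.5%. ATPsynepsilonL made up 2.36%, 7.10% and 18.9% of its pair with sun, the gene of the ATP synthase epsilon subunit. Rcd-1r, a copy of a CCR4-NOT subunit gene, made up 4.51%, 13.5% and 29.6%, and betaNACtes6 0.149%, 0.657% and 2.59% beside bic.

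Other copies had other courses. RpS5b, which holds most of its pair in the early germline, went from 72.5% to 69.7% and 65.3%, RpL34a had 22.04%, 22.4% and 23.9%, and the maternal alpha tubulin alphaTub67C went from 17.1% to 11.2% and 5.38% of its pair with alphaTub84B. No UMI of RpL10Aa was found in any class. The pairs were chosen after the values were seen. COX7AL made up 0.292%, 1.2% and 2.03% of its pair with COX7A, with 2.10% in the late bin of highest and 1.88% in that of lowest maternal share. In pgc-rich, pgc-losing and late cells of the female library the share of RpS10a was 2.30%, 2.13% and 2.94%, and in the male library 2.28%, 3.08% and 3.98%. That of RpL22-like was 13.9%, 17.9% and 22.1% in female and 20.6%, 27.9% and 36.0% in male cells, and that of TfIIA-S-2 0.784%, 1.57% and 4.10%, and 0.660%, 0.994% and 2.33%. Both ribosomal copies thus stood higher in pgc-rich cells there than in pgc-rich cells of the unsexed library. The share of Cyt-c1L was 5.31%, 8.84% and 9.01% in female and 7.33%, 8.82% and 10.0% in male cells, and that of COX7AL 0.836%, 1.28% and 0.940%, and 1.05%, 1.59% and 1.62%. RpS10a, RpL22-like and TfIIA-S-2 were higher in late than in pgc-losing cells in all 3 libraries. For COX7AL and Cyt-c1L the intervals of late and pgc-losing cells overlapped in both sexed libraries. The female share of COX7AL was lower in late cells, at 0.940% (0.784 to 1.12%) against 1.28% (0.935 to 1.71%). Reads of near-identical copies can be assigned to either, and the counts do not show how many were.

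**Figure D2:**
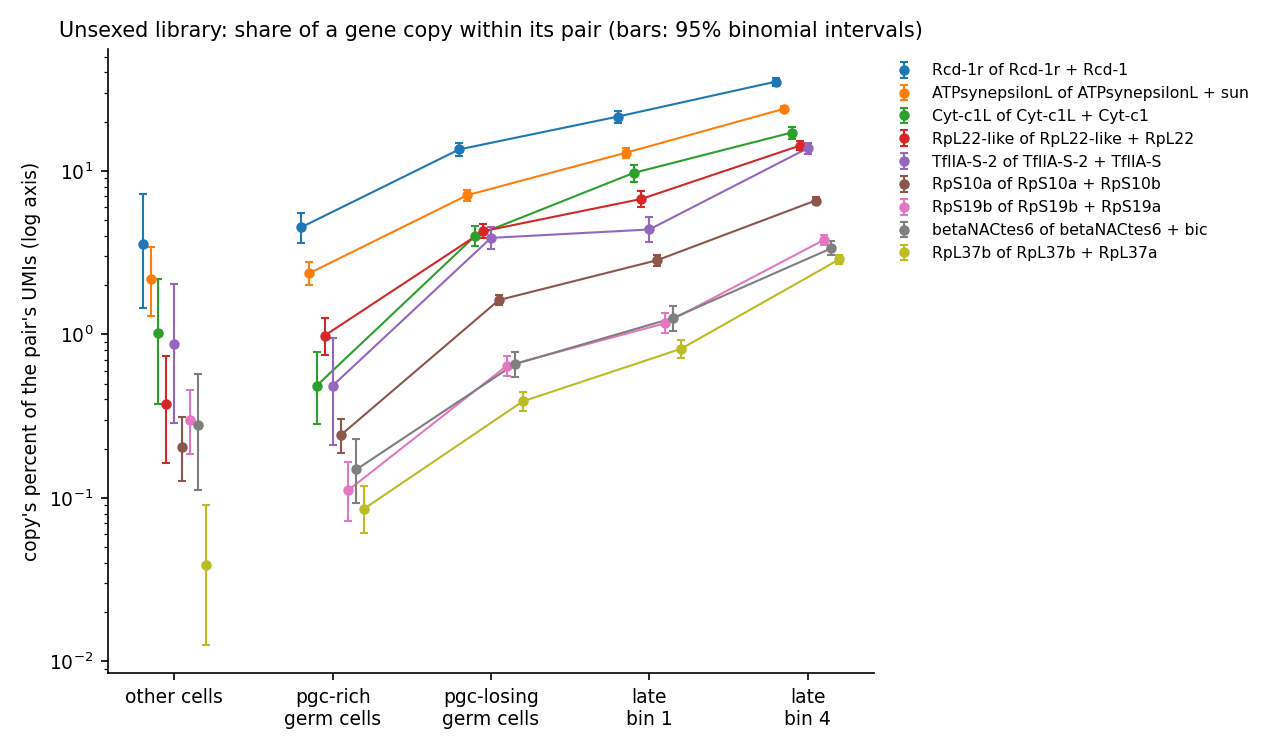
Share of a gene copy in the UMIs of its pair (y axis, percent, log scale) in other cells, pgc-rich and pgc-losing germ cells and the late bins with the highest (1) and lowest (4) maternal share of the unsexed library, with bars for 95% binomial intervals. All 9 copies shown were higher in late bin 4 than in pgc-rich cells, as for TfIIA-S-2 at 13.8% and 0.485%.

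Meiotic and differentiation genes were few but included the leading one. Of 14 genes of the synaptonemal complex and meiotic recombination, 6 passed the filter. Higher were cona and ord, a cohesion protein gene at 36.1 against 11.5 CPM. Both passed the filter through late cells, so no count of higher genes is read. The maternal Polo inhibitor gene mtrm was lower at 25.5 against 98.8 CPM, beside 2.57% lower of all genes. The transverse filament gene c(3)G stood at 65.8 and 43.5 CPM and the central-region gene corolla at 29.1 and 25.1 CPM, under the limit. Of 14 germline differentiation genes 9 passed. The partner of bam, bgcn, was higher at 25.2 against 8.39 CPM and also passed through late cells. The translational repressor gene pum was lower at 350 against 780 CPM. The differentiation factor gene bam itself was at 7.76 and 7.18 CPM in late and pgc-losing cells, under the size filter. Below that filter tut, another partner of bam, stood at 16.0 and 3.95 CPM. The shares of bgcn reads are uncertain because it overlaps Pym on the same strand.

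Genes of nuage and the piRNA pathway silence transposons in the germline. Of 22 genes 17 passed the filter and 0 were past the 2-fold limit in either direction against pgc-losing cells, where 4.99% of all genes were. Late cells were above other cells for krimp (125 against 9.05 CPM), mael (107 against 18.1) and tej (96.2 against 12.7). The same held for AGO3 (82.7 against 13.6) and spn-E (41.6 against 4.07). These genes passed the size filter through late cells, and vas and aub of this list belong to the rule. No count over the list against other cells is therefore read. AGO3 was lower in late than in pgc-rich cells (82.7 against 161 CPM), and tej was higher (96.2 against 49.5).

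Early zygotic and maternal genes come next. In the first zygotic wave, halo stood at 4.71 CPM in late, 59.2 in pgc-losing and 214 in pgc-rich cells, the pair-rule gene run at 10.5, 52.4 and 82.8, and CG13465 at 10.4, 60.8 and 187 CPM. Members of this list passed the size filter through the classes where they are high, so no count over them is read. The germ plasm list had 1 of 7 lower than in pgc-losing cells, where 2.57% of all genes were, CycB at 476 against 1083 CPM. Of 10 genes of maternal RNA repression and decay pum was the only one of 7 tested past the limit, with the P-body helicase gene me31B at 499 against 992 CPM just inside it. The thioredoxin gene dhd, a maternal gene named after its values were seen, stood at 56.9 CPM in late, 192 in pgc-losing and 712 in pgc-rich cells. The poly(A) polymerase gene wisp, which acts on maternal RNA, stood at 227, 875 and 1332 CPM.

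In the remaining lists few members passed the limit against pgc-losing cells, beside 2.42% higher and 2.57% lower of all genes. Of 12 migration and adhesion genes 7 were tested and 2 were lower, the guidance receptor gene Tre1 (56.5 against 146 CPM) and the lipid phosphatase gene wun2 (43.8 against 98.2), both of which act in germ cell migration. Among glycolytic genes Hex-A was lower at 17.2 against 45.0 CPM, having passed the size filter through pgc-losing cells, and the list median was -0.37. The mitochondrial ribosome had 61 of 72 genes with a ratio above 1 and a median of 0.21. Over all genes 2796 of 4674 had a ratio above 1, with a median of 0.074. No gene of the mitochondrial ribosome was past the limit, and TMM scaling lowers all these log2 ratios by 0.11. Among nuclear genes of oxidative phosphorylation ND-B8 and the copy ATPsynepsilonL were higher, and ND-B8 passed the filter through late cells. Of the apoptosis list 6 of 10 genes were tested, and rpr, a cell death activator, was lower at 19.1 against 71.7 CPM. Like Hex-A, rpr passed the size filter through pgc-losing cells. Of the JAK-STAT list the feedback inhibitor gene Socs36E was lower at 36.6 against 108 CPM. Of 17 tested cell-cycle genes CycB alone was past the limit. The cell-cycle driver stg stood at 215 CPM in late, 274 in pgc-losing and 1428 in other cells.

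Within the 1494 late cells the share of RNA from 4 maternal transcripts (gcl, osk, orb and CycB) was used to divide them into 4 bins of 373 or 374 cells. Of these 4, osk stood at 106 CPM in pgc-rich, 53.1 in pgc-losing and 66.4 in late cells, and so was not lower in late than in pgc-losing cells, and within late cells it went from 98.1 to 34.2 CPM. The median share per 10000 UMIs was 10.0 in bin 1 and 2.12 in bin 4, and CycB, which weighed most, went from 976 to 135 CPM. The levels of gcl went from 51.8 to 32.2 CPM and those of orb from 13.8 to 10.9, so the bins follow CycB above all. The bins were alike in depth (medians of 17994.5 and 17787 UMIs). The pgc level was 28.9 CPM in bin 1 and 10.5 in bin 4, and no pgc UMI was found in 220 and 309 cells. The sum of the 57 markers of other cell types was 584 and 616 CPM.

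**Figure D3:**
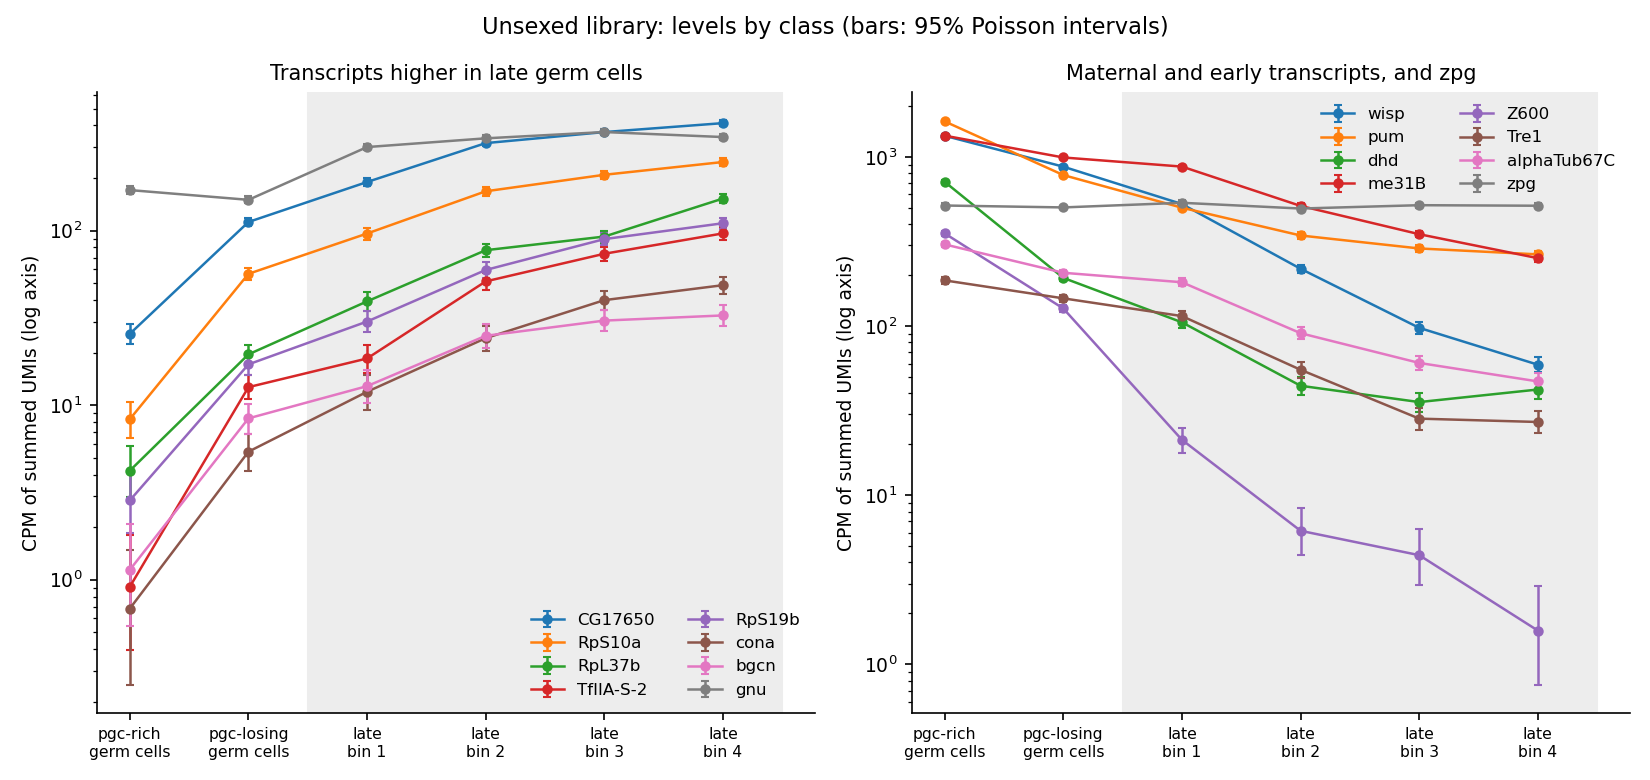
CPM (y axis, log scale) in pgc-rich and pgc-losing germ cells and in late bins 1 to 4 of the unsexed library, with bars for 95% Poisson intervals and the late bins shaded. On the left TfIIA-S-2 went from 18.5 in bin 1 to 96.3 CPM in bin 4, and on the right wisp from 526 to 59.1 CPM while zpg stayed between 495 and 535 CPM.

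Between bins 1 and 4, 64 of 4724 genes (1.35%) were at least 2-fold higher and 192 (4.06%) at least 2-fold lower in bin 4, 5.42% in either direction. The female library had 55 (1.05%) higher and 74 (1.42%) lower of 5222 genes and the male library 31 (0.61%) and 84 (1.65%) of 5086. TfIIA-S-2 led at 5.21-fold (4.28 to 6.38), with 18.5, 51.1, 73.6 and 96.3 CPM from bin 1 to 4, followed by CG15930 (4.30), HmgZ (4.10), cona (4.08), lncRNA:CR43264 (4.06) and RpL37b (3.88). HmgZ, an HMG-box gene, was at 67.0 CPM in bin 4 but 2440 CPM in other cells, and with late cells in 2 bins it was under the limit. The same 4 ribosomal copies were higher again, the median of that list was 0.38, and bgcn and tut were higher too. The lowest were Z600 (13.4-fold), CG30377 (12.7), the zinc-finger gene salm (10.6, from 77.0 to 7.29 CPM), CG4586 (10.3), the stress gene Sesn (9.63) and wisp (8.90, from 526 to 59.1 CPM). The 4 glycolytic genes Hex-A, Tpi, Eno and PyK were at least 2-fold lower, with Eno at 1672 and 780 CPM. All 11 glycolytic genes tested had ratios below 1, whereas 1938 of 4724 genes over all were above 1. The list median was -0.63 beside -0.094 over all genes. The linker histone gene BigH1 stood at 553 CPM in bin 1 and 282 in bin 3, with bin 4 lower still, and the TATA-binding protein gene Tbp went from 137 to 66.4 CPM. The cell-cycle genes CycB3 and fzy were at least 2-fold lower in bin 4 too, beside 4.06% of all genes. The female and male libraries gave the same direction for 43 of 45 and 48 of 48 tested genes of the higher set, against 36.5% and 35.6% of all genes, and for 162 and 168 of 172 of the lower set, against 63.5% and 64.4%.

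The transcription factor gene chinmo, which acts in the maintenance of male identity in the adult testis, was named after its values were seen. It stood at 12.5 CPM in pgc-rich, 40.6 in pgc-losing and 129 (125 to 133) in late cells, and went from 67.7 to 184 CPM between bins 1 and 4. Late cells exceeded pgc-losing cells 3.17-fold (unsexed), 3.86-fold (female) and 2.47-fold (male). Other cells of the unsexed library held 160 CPM. It shares a strand with a transposon insertion in the annotation.

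Because a difference in sums could come from a few cells, each cell was thinned to 5000 UMIs, which kept 1469 late, 765 pgc-losing, 557 pgc-rich and 132 other cells and left out 25, 12, 11 and 330. Among late cells 78.4% had a gnu UMI, against 45.0% of pgc-losing, 43.1% of pgc-rich and 7.58% of other cells. Without thinning the gnu shares were 96.5%, 77.0%, 72.2% and 8.01%. For CG14346 the shares were 64.6%, 24.4%, 6.28% and 2.27%, for RpS10a 53%, 19.5%, 3.41% and 2.27%, and for chinmo 40.03%, 13.5%, 4.13% and 6.06%. TfIIA-S-2 was seen in 20.9% of late, 5.49% of pgc-losing and 0.718% of pgc-rich cells, and in 0 of 132 other cells, which at a floor of 3 counts allows a share of cells with a UMI of up to 2.27%. For cona the shares were 13.7%, 1.44%, 0.359% and 0.758%, and unthinned 34.9%, 6.05%, 0.88% and 0.433%. At this depth a cell without a UMI of cona is not shown to lack the transcript. The share of other cells with a UMI of vas was 34.8%, against 69.0% of late cells.

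**Figure D4:**
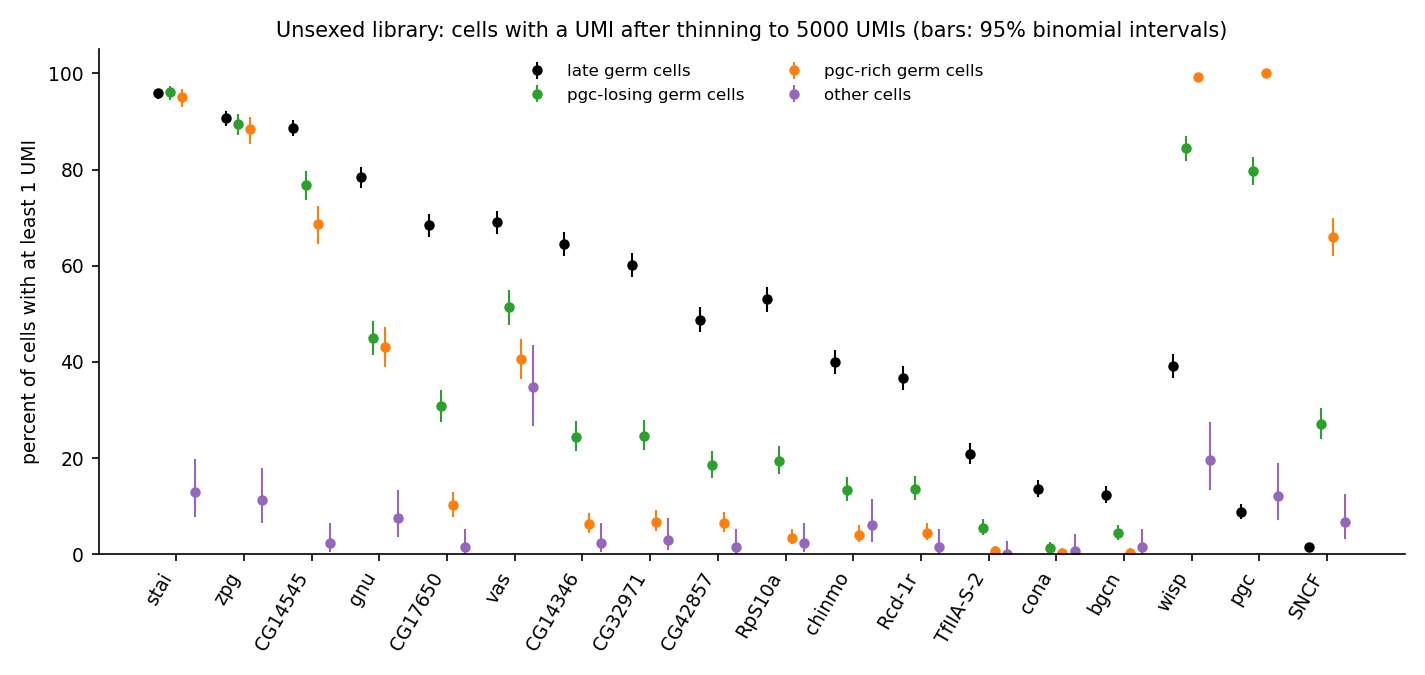
Percent of cells with at least 1 UMI (y axis) after thinning to 5000 UMIs per cell, for 18 genes (x axis) in late, pgc-losing, pgc-rich and other cells of the unsexed library, with bars for 95% binomial intervals. For stai and zpg the 3 germ cell classes coincide, for gnu and CG14346 late cells stand above the others, and for wisp and SNCF they stand below pgc-rich cells.

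The unsexed library holds embryos of both sexes, so the late cells were read for X-linked and Y-linked RNA. Per cell, X-linked genes made up a median of 14.6% of non-mitochondrial UMIs (quartiles 13.4% and 17.1%). The midpoint between the medians of the female and male late cells, 14.9%, was taken as a divide after the values were seen, with a margin of 0.5 on either side. Of the unsexed late cells 710 (47.5%) lay below the margin, 684 (45.8%) above it and 100 (6.69%) within. In the female library 810 of 852 late cells (95.1%) lay above, and in the male library 2756 of 2949 (93.5%) below. In the unsexed cells below the margin the Y-linked genes summed to 14.2 CPM (12.2 to 16.5) and in those above it to 1.59 CPM (0.956 to 2.48). The 100 cells within the margin held 16.2 CPM (10.5 to 23.9), a level near that of the cells below it. The Su(Ste):CR42418 RNA, whose family represses the X-linked Stellate genes in the male germline, stood at 19.3 CPM below and 0.585 CPM above the margin. Over all late cells, Y-linked genes were at 8.49 CPM, between 0.275 CPM in female and 19.1 CPM in male late cells.

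**Figure D5:**
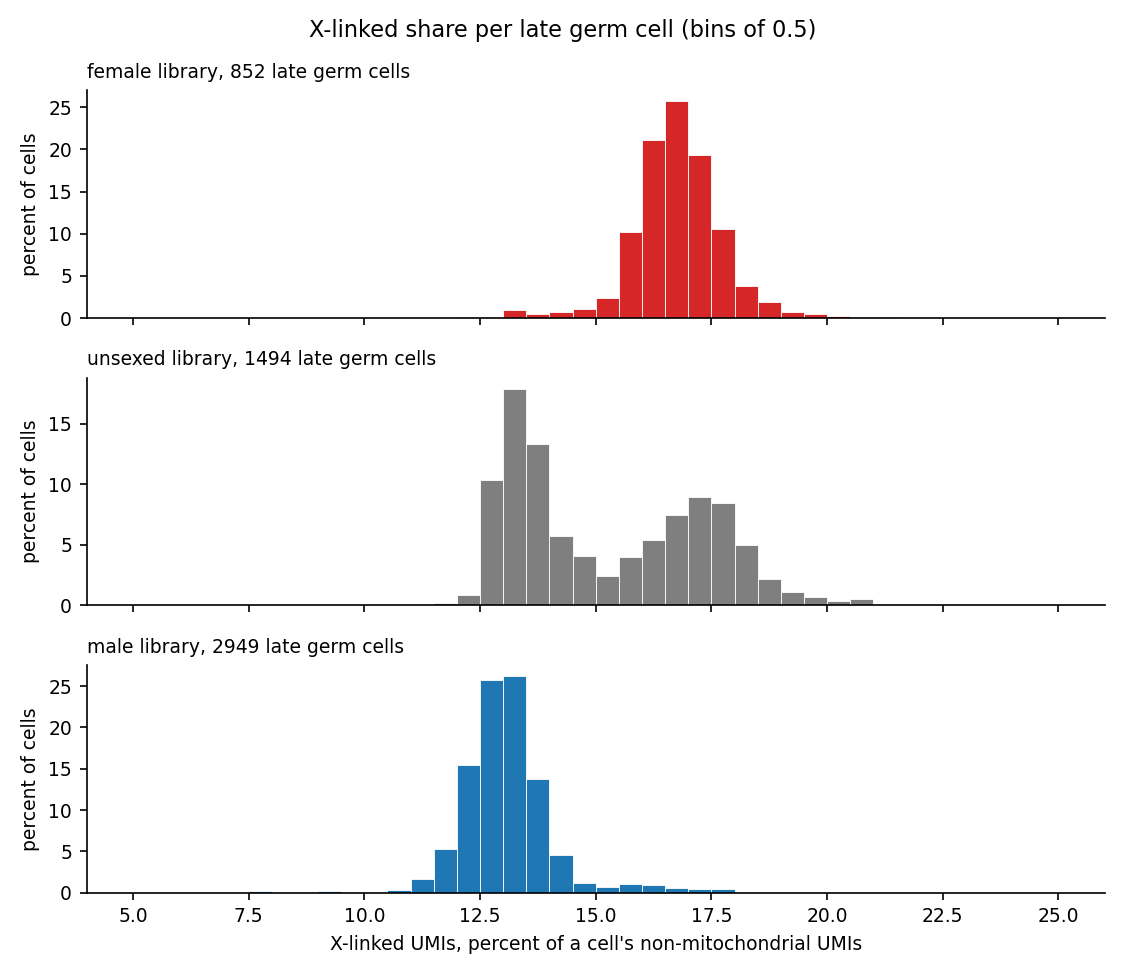
Percent of late germ cells (y axis) by X-linked percent of non-mitochondrial UMIs in bins of 0.5 (x axis), for the female (top), unsexed (middle) and male library (bottom). The unsexed cells form a group at the place of the male cells, and a group at and above that of the female cells, whose median was 16.7%.

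Ribosomal RNA precursor copies gave another reading. Of the unsexed late cells 453 (30.3%) had UMIs of pre-rRNA:CR45845 and none of pre-rRNA:CR45847, 92 (6.16%) the reverse, 13 both and 936 neither. The first was found alone in 84.6% of female and 6.10% of male late cells, and the second alone in 0.939% and 59.9%. Cells with the first alone had 16.7% X-linked RNA and cells with the second alone 13.4%. The median log2 ratio between these 2 sets was 0.52 over 815 X-linked genes, of which 97.8% lay above 0, and -0.059 over 3849 autosomal genes. Among germline genes, Phf7, a male-germline chromatin reader gene on the X, was 2.22-fold (1.58 to 3.20) higher in cells with the first precursor alone. RpS10a was lower in them (172 against 226 CPM, ratio 0.765, 0.681 to 0.861) and TfIIA-S-2, also on the X, had a ratio of 1.18 with an interval that spans 1 (0.960 to 1.47). Ribosomal RNA and Su(Ste) genes are repeated, so counts of any one copy are uncertain. No sex was assigned to any cell.

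X-linked and autosomal genes were also compared along the axis. The median late to pgc-losing log2 ratio was 0.019 over 799 X-linked and 0.084 over 3865 autosomal genes, a difference of -0.065. The mixture of cells by X-linked share was not held fixed in that comparison, and X-linked genes made up 15.2% of RNA in late, 16.1% in pgc-losing and 16.8% in pgc-rich cells.

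A set of 184 cells (12.3%), chosen after the values were seen, held at least 20 UMIs per 10000 from the E(spl) genes, a cluster of Notch targets. The share of such cells was 14.9% in pgc-losing, 5.11% in pgc-rich and 44.8% in other cells. Their zpg level was 459 CPM against 522 in the remaining late cells, and CG17650 was at 371 against 315, both genes of the rule. With the E(spl) genes that defined the set included, 28 of 4723 genes (0.593%) were at least 4-fold higher in these cells and 0 were lower. Those that did not define it included ImpL2, a secreted insulin antagonist gene (230 against 33.6 CPM), rpr (80.7 against 11.9), Socs36E (129 against 25.9), edl (78.5 against 7.84) and the myoblast gene lmd (32.2 against 2.11). ImpL2 and lmd stood at 910 and 437 CPM in other cells, 24 of the 184 cells belonged to the set with the most somatic markers, and 15 to the set rich in rpr and hid. The part of RNA from other cells in this set was not tested.

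A smaller set of 38 cells (2.54%) held at least 5 UMIs per 10000 of the cell death genes rpr and hid. The shares were 6.69% of pgc-losing, 6.34% of pgc-rich and 24.2% of other cells. These late cells had 200 CPM of egr, the fly TNF ligand gene, against 6.22 in the rest, 321 against 49.9 CPM of the stress factor gene Xrp1, and 43.6 against 2.36 CPM of the death gene skl. CG6040 stood at 192 against 3.46 CPM and Rchy1 at 75.3 against 0.787 CPM, with 5.88 and 8.60 CPM in other cells. Next by ratio were CG13427 (357 against 8.19) and CG13465 (246 against 5.75), which stood at 811 and 590 CPM in other cells. Others of the higher genes were abundant there too, such as CG4440 at 1712, Cys at 1500 and Inx3 at 413 CPM. The part of RNA from other cells in this set was not tested. No UMI of grim, the neighbour of rpr and hid in the same death gene cluster, was found in the 38 cells. The remaining late cells held only 1 (0.0394 CPM), so the absence of grim does not set the 38 cells apart. Of 4746 genes, rpr and hid included, 80 (1.69%) were at least 4-fold higher and 10 (0.211%) lower. Levels of zpg (436 against 517 CPM) and CG14545 (486 against 488 CPM) were close to those of the rest, while CG17650 (188 against 323) and TfIIA-S-2 (25.8 against 60.3) were lower. All of these but TfIIA-S-2 belong to the rule. Their median depth was 12775.5 against 17983.5 UMIs.

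Another set of 93 cells (6.22%) held at least 10 UMIs per 10000 from the 57 markers of other cell types, against 17.4% of pgc-losing, 22.7% of pgc-rich and 83.8% of other cells. Apart from its defining genes it was led by the muscle actin genes Act87E (81.8 against 3.02 CPM) and Act57B (36.4 against 0.980), Him (48.2 against 1.67), edl (147 against 7.47) and CG13465 (103 against 4.98). Further down stood HmgZ (296 against 23.0), with 47 of 4760 genes (0.987%), defining genes included, at least 4-fold higher and 0 lower. The germ genes zpg (467 against 518 CPM) and vas (296 against 268) stayed near the level of the rest. Both belong to the rule, so their level is in part set by the selection.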

How the data were processed

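Single-cell 3′ RNA was measured in 3 droplet libraries of sorted embryonic cells. The deposited matrices hold raw UMI counts, which the authors obtained with Cell Ranger on build BDGP6, per the submitters' processing notes. Per the file headers, the software version was 3.0.1 for the unsexed and 3.1.0 for the sexed matrices. Filters before deposit, beyond cell calling, are not given in the sources used here. The deposited dense table of the unsexed counts held the same values (0 differed, and 3 of its rows named no gene) and served for a check and for chromosomes. The dense tables of the sexed libraries, which hold more barcodes than the matrices, were not used here.

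Members, gene lists and pairs were chosen with earlier results of these data known. Cells were classed by the rule, UMIs were summed per class, 37 mitochondrial genes were left out (0 mitochondrial UMIs in the sexed libraries), and sums were scaled to CPM. Levels have exact Poisson, ratios exact conditional and shares exact Clopper-Pearson intervals at 95%. Log2 ratios used a pseudocount of 1 CPM. Fold limits were 2 against pgc-losing cells and between bins and 4 otherwise. The size filter and the limit of 2 were tried on simulated counts, with the outcome not given here, and the limit of 4 was not. Named genes were the 12 highest and 8 lowest against pgc-losing and pgc-rich cells, the 8 highest against other cells, 6 each way between bins, the 15 most abundant genes and the members of 22 lists, and 19 more were named after their values were seen. No doublets were removed: Scrublet in scanpy 1.11.5 called 26 of 3771 cells. Of 17509 gene IDs, 17398 matched the annotation used for chromosomes and overlaps. Total UMIs were 58378567, 109431813 and 47345241 for the unsexed, female and male libraries. edgeR 4.0.16 gave TMM factors only. Alternatives are under the closing section.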

Additional observations from a re-analysis of the deposited data

Results flagged for a closer look

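Ratios that moved at least 1.5-fold one way in the unsexed library and at least 1.5-fold the other way in a sexed library, beyond counting error, were marked for a second look. The differences were not tested, and kit, hours and genotype differ between the libraries and cannot be told apart. E(spl)m8-HLH, a Notch target, was 2.88-fold higher in late than in pgc-rich cells of the unsexed library, with ratios of 0.479 (female) and 0.578 (male). The late to pgc-losing ratio of fkh was 0.135 in the unsexed and 2.61 in the female library. The late to pgc-rich ratio of vvl was 0.259 in the unsexed and 2.98 in the female library. The female late cells that gave these ratios had 1593 CPM of the 57 markers of other cell types, against 600 in unsexed late cells, and fkh and vvl are themselves on that list. Its part in those 2 ratios was not tested.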

How the results depend on the processing

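Each choice was changed in turn. For the log2 ratios of the genes ranked highest and lowest in each comparison (the other genes given with values were not recomputed), 747 values kept direction and limit, 33 kept direction but came under the limit, and 0 reversed. Against other cells limited to those with at most 1 germ gene, CG14810 went from 4.35 to 5.28, CG42857 from 4.47 to 5.59 and CG15398 from 4.55 to 5.79. With a border at 20 pgc per 10000, RpS10a went from 4.28 to 5.13 and CG14346 from 3.95 to 4.94 against pgc-rich cells. Counts (higher, lower) moved by over 1.5 times as follows. With a size filter of 5 CPM they were 303 and 232 against pgc-losing cells, 340 and 234 against pgc-rich cells, 659 higher than other cells, and 203 and 300 between bins. At 50 CPM they were 55 higher than pgc-losing cells, 65 and 85 against pgc-rich cells, 212 and 262 against other cells, and 27 and 122 between bins. With the fold limits exchanged (4 for 2 and 2 for 4) they were 6 and 24, 610 and 428, 1493 and 720, and 5 and 30 in the same order. With 2 bins 9 genes were higher and 49 lower, and with late cells limited to those with 0 pgc UMIs 39 were higher between bins. Fewer genes pass a stricter filter or limit by construction. Leaving out the 3 sets of cells or the cells rich in somatic markers (both chosen after seeing the data) or the 114 highest doublet scores, or asking for 4 germ genes or 5000 UMIs, kept every count within 1.5 times. The dense table gave identical counts. No paired analysis was possible because each group has 1 library. Depth limits genes under about 20 CPM, and 1 library per group limits all of it.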
